A study of Rattus norvegicus with 30 samples.

Results

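The calcium cycling genes described here were the 10 genes whose products move calcium in and out of the cytosol of the heart muscle cell at every beat: Atp2a2, Pln, Sln, Ryr2, Casq2, Fkbp1b, Cacna1c, Cacnb2, Slc8a1 and Camk2d. They were taken by symbol from the deposited expression tables, with every row that carried a member's name. The 10 genes had 20 rows in each table, out of 27408 rows at 8 weeks, 27383 at 21 weeks and 26553 at 78 weeks, and the 20 rows were made from 27 probes. The RNA came from whole hearts of F344 rats, an inbred strain, that had received no treatment. At 8 weeks (young), 21 weeks (adult) and 78 weeks (old) there were 5 hearts of each sex, each on its own one-colour Agilent array. All 30 rats came from the same breeding colony and ate the same diet. Because RNA came from the powdered whole heart, atria and ventricles were mixed, and fewer cells of a type cannot be told apart from less RNA per cell.

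At each beat of a heart muscle cell, calcium enters through L-type channels of the cell membrane and opens the ryanodine receptors of the sarcoplasmic reticulum, which release the larger part of the calcium that starts contraction. Relaxation follows as the SERCA2 pump returns calcium to the reticulum and the sodium-calcium exchanger carries the rest out of the cell. Phospholamban and sarcolipin are small membrane proteins that restrain the pump, phospholamban mainly in the ventricle and sarcolipin mainly in the atrium, and phosphorylation of phospholamban, among others by calcium/calmodulin-dependent kinase II, lifts that restraint.

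A few probe sequences are given because the results below turn on where they lie. Coordinates are those of the array annotation (rat build rn3), and each full probe printed had 60 bases; which exon a probe lies in was not analysed here. The phospholamban probe read in all comparisons (chr20:32021812-32021871, plus strand) crosses the start codon, with 26 bases of leader before the coding part in capitals.
Pln row 2: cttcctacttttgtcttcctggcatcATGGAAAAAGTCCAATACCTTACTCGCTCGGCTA
The 2 sarcolipin probes overlapped each other by 42 bases on opposite strands of chromosome 8. The row 2 probe (57337521 to 57337580, plus strand) carried the letters of the transcript, whereas the row 1 probe (57337539 to 57337598, minus strand), designed from an expressed sequence tag, carried their reverse complement. The same 20 bases around the start codon, with ATG or its complement CAT in capitals, show it.
Sln row 2: ccttctgaagATGgagcggt
Sln row 1: accgctcCATcttcagaagg
The Camk2d probe that was measurable was designed on a partial cDNA of the delta B splice form from rat heart. Its ends lie 7326 bases apart on the genome (chr2:224043690-224051015, plus strand), so that it spans an intron.
Camk2d row 2: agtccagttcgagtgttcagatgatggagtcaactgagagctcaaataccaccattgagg
Both ryanodine receptor probes that passed the test between old and young hearts, described below, are shown last. In that comparison age and batch cannot be told apart. The first lies at chr17:69261924-69261983 and the other at chr17:69373729-69373788, both on the plus strand.
Ryr2 row 1: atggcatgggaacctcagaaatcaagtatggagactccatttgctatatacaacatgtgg
Ryr2 row 4: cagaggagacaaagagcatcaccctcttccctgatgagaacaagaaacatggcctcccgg

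Of the 20 rows, 14 were well above background on all 10 arrays of each age, and these 14 covered every member except Fkbp1b. The scanner software makes this call per spot by comparing signal with local background, and a row counted on an array if any of its spots passed. Fkbp1b, which encodes the FK506-binding protein calstabin-2 that binds the ryanodine receptor, was measurable on 8 of 10 arrays at 8 weeks, 8 at 21 weeks and 6 at 78 weeks. The remaining 5 rows, Pln row 1, Casq2 row 1, Slc8a1 row 1 (the NACA7 splice form of the exchanger), Cacna1c row 2 and Camk2d row 1, stayed at background, 4 of them on every array and Casq2 row 1 on all but 1 female array of 78 weeks. Casq2 row 1, like Sln row 1, carried the strand opposite to that of its gene. No member spot was saturated on any array. Where no row is named below, the gene's measurable row is meant, and a probe's level was not set against that of another probe.

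Some facts of the series touch these results. Between 17182 and 24290 spots per array were well above background. The array of 21-week male replicate 2 had the fewest, and its 75th percentile, the value by which each array was scaled, was the lowest at 36.9, in a range up to 157 over the 30 arrays. That array, 21-week male replicate 5 and 78-week female replicate 4 stood apart from the others of their age, with a median correlation of 0.967, 0.970 and 0.967 over 14442 probes, whereas every other array reached at least 0.981. At 78 weeks, Y-linked genes lay at the male level in female replicate 2 and at the female level in male replicate 3, called the discordant arrays below. Sex differences of measurable rows are also given without the 2 arrays that stood apart at 21 weeks, from the scanner values, and without the discordant arrays at 78 weeks. They are not given without 78-week female replicate 4. Females always lay at array positions 2 and 4 of a slide and males at 1 and 3, so that sex and position cannot be told apart.

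**Figure D1:**
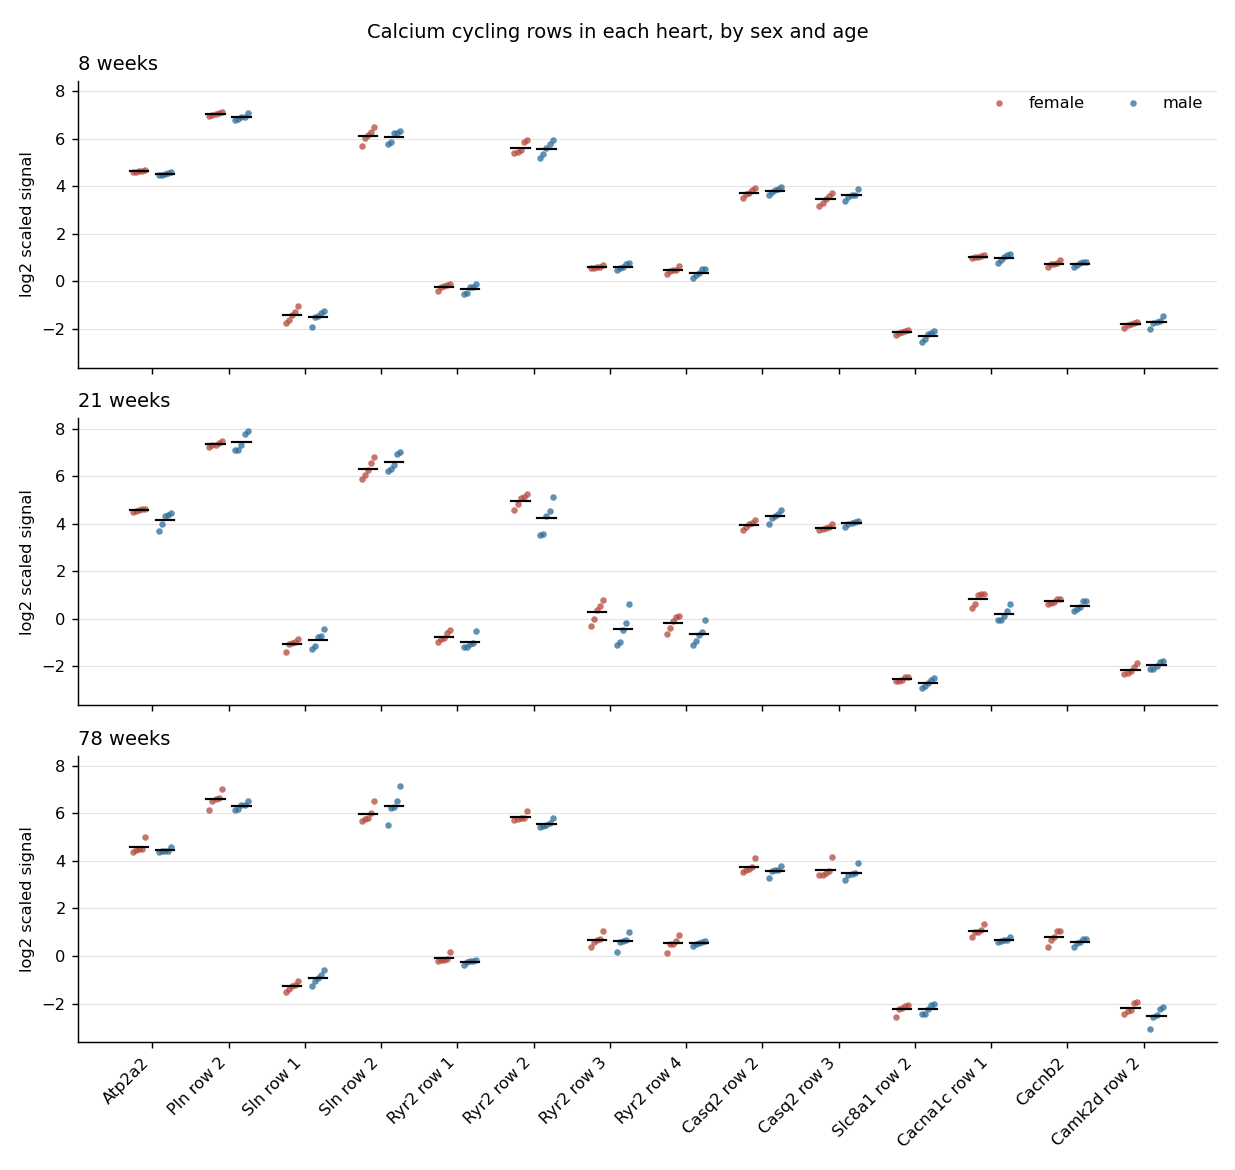
Log2 scaled signal (vertical axis; the authors' value, signal over the array's 75th percentile) of the 14 rows well above background on every array, in panels for 8, 21 and 78 weeks. Points are single hearts (5 females in red, 5 males in blue, drawn in order of value) and bars are group means; the sexes lie close together at 8 weeks, spread most at 21 weeks, and each age was scaled on its own.

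The first question was whether these genes were expressed differently in female and male hearts of the same age. No member row differed between the sexes at an adjusted p under 0.05 at 8, 21 or 78 weeks (limma, Benjamini-Hochberg over all rows), a threshold passed by 0.102% of all rows at 8 weeks, 0.0511% at 21 weeks and 0% at 78 weeks. At an unadjusted p under 0.05 there were 0 of 20 member rows at 8 weeks, 5 at 21 weeks and 4 at 78 weeks, where 5.74%, 15.9% and 5.65% of all rows passed. On scanner values, without spots that the scanner software had marked as outliers, there was 1 member row at 8 weeks, beside 1572 of 27311 rows. Without the 2 arrays that stood apart there was 1 member row at 21 weeks, beside 2009 of 27288 rows. Without the discordant arrays there were 4 member rows at 78 weeks, beside 2231 of 26553. Among the 14 measurable rows, the female mean was the higher one for 10 and the male mean for 4 at 8 weeks, with differences from -0.17 to 0.15 on the log2 scale and a median of 0.05. The median over all 20 member rows was also 0.05, against -0.004 over all rows of the table. At 21 weeks these numbers were 8 and 6, with differences from -0.35 to 0.75 and a median of 0.17. Over all 20 member rows, the rows at background included, the median turned to -0.15, against -0.14 over all rows. At 78 weeks they were 11 and 3, from -0.37 to 0.37 with a median of 0.13. The median over all 20 member rows was 0.07, against -0.004 over all rows.

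Atp2a2 encodes the SERCA2 pump and was read by 3 probes on 12 spots that the authors merged into 1 row. At 8 weeks its scaled signal was 24.3, 24.6, 24.8, 25.1 and 25.6 in females and 22.3, 22.3, 22.8, 24.0 and 24.1 in males. Every female lay above every male, by 0.11 ± 0.06 on the log2 scale (SE, n = 5 per sex). This is 1.08-fold, with an adjusted p of 0.909 by limma and p = 0.00794 by a two-sided exact permutation test, the smallest that 5 against 5 allows. Complete separation with females higher was found for 0.558% of all rows at 8 weeks, and Atp2a2 was the only one of 20 member rows to show it. Separation with males higher was found for 0.85% of all rows at 8 weeks, 2.12% at 21 weeks and 0.49% at 78 weeks, and for no member row.

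At 21 weeks Atp2a2 signals were 22.6, 23.4, 24.2, 24.3 and 24.5 in females and 12.88, 15.85, 20.12, 20.54 and 22.03 in males. The groups again did not overlap, with a difference of 0.41 ± 0.16 and an adjusted p of 0.290 by limma, where 1.93% of all rows separated in this direction. Without the 2 male arrays that stood apart the difference was 0.21, with an adjusted p of 0.6895 by limma. At 78 weeks the signals were 20.5, 22.3, 22.9, 22.9 and 32.45 in females and 20.8, 21.3, 21.5, 21.6 and 24.2 in males. The groups overlapped, and the difference of 0.13 ± 0.13 did not exceed its error. Without the discordant arrays it was 0.17. The highest female was replicate 4, the array that stood apart at that age, with a scanner log2 level of 5.96 against 5.42 for the next female. At that age 0.41% of all rows and no member row separated with females higher. The 3 probes taken singly all had a higher mean in females at every age, from 0.09 to 0.13 at 8 weeks, 0.13 to 0.47 at 21 weeks and 0.12 to 0.26 at 78 weeks.

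Phospholamban (Pln row 2) was 124, 129, 131, 136 and 141 in females and 110.5, 115, 120, 120 and 137 in males at 8 weeks. The highest male value came from replicate 5, whose spot the scanner software had marked as an outlier. The difference was 0.13 ± 0.07, with an adjusted p of 0.916 by limma. On scanner values without the marked spot it was 0.19 ± 0.08, with an unadjusted p of 0.030 and an adjusted p of 0.928 by limma. At 21 weeks females had 150, 157, 161, 168 and 176 and males 138.5, 138.6, 161, 222 and 237. The male values thus lay on both sides of the female range. The difference of -0.11 ± 0.18 became 0.19 without the 2 male arrays that stood apart. At 78 weeks females had 70.8, 92.6, 96.2, 100 and 131 and males 71.0, 72.0, 80.8, 83.0 and 90.8. Here 4 of 5 females lay above all males and the other below all of them, with a difference of 0.28 ± 0.16 and an adjusted p of 0.856 by limma, and of 0.41 without the 2 discordant arrays. The highest female was again replicate 4, which stood apart, with a scanner log2 level of 7.98 against 7.56 for the next female.

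Sarcolipin (Sln row 2) varied more from heart to heart. At 8 weeks its signal ran from 51.7 to 90.6 with a median of 72.6 in females and from 55.9 to 80.1 with a median of 75.5 in males, a difference of 0.04 ± 0.17. At 21 weeks the ranges were 58.1 to 112 in females and 75.3 to 131 in males, a difference of -0.29 ± 0.23. At 78 weeks females ran from 50.9 to 92.5 and males from 44.98 to 141, a difference of -0.37 ± 0.28. The groups overlapped at all 3 ages. The opposite-strand row of sarcolipin had the same signs, with 0.06 ± 0.16, -0.18 ± 0.18 and -0.36 ± 0.14. Without the 2 arrays that stood apart the rows 2 and 1 differed by -0.42 and -0.21 at 21 weeks, and without the discordant arrays by -0.41 and -0.39 at 78 weeks. At 78 weeks the atrial marker Nppa (atrial natriuretic peptide), from the list of 4 measured atrial markers, stood at a log2 signal of 7.41 ± 0.30 in females and 7.96 ± 0.38 in males (SD, n = 5). The summed signal of that list ran from 700 to 841 in females and from 734 to 939 in males, none of its genes passed the test, and the part of atrial tissue in the sarcolipin values was not tested.

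The ryanodine receptor gene Ryr2, the release channel, had 4 rows. At 8 weeks their sex differences lay between -0.02 and 0.12. At 21 weeks all 4 had higher means in females, row 1 by 0.24 ± 0.17, row 2 by 0.75 ± 0.30, row 3 by 0.70 ± 0.33 and row 4 by 0.46 ± 0.22. Row 2 signals at that age were 23.7, 28.7, 33.4, 35.3 and 37.7 in females and 11.5, 12.0, 19.9, 23.5 and 35.0 in males, so that the highest male overlapped the females. Without the 2 arrays that stood apart the 4 differences were 0.14, 0.34, 0.32 and 0.26. At 78 weeks row 2 was 52.7, 54.7, 55.3, 55.9 and 69.0 in females and 43.6, 44.8, 45.4, 48.3 and 56.0 in males, a difference of 0.27 ± 0.11 with an adjusted p of 0.856 by limma, whereas row 4 differed by -0.00 ± 0.13. Without the discordant arrays these differences were 0.27 and -0.06.

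Calsequestrin 2 (Casq2) buffers calcium inside the reticulum. Row 2 was 13.5, 14.6, 15.65, 16.1 and 18.01 in females and 15.71, 19.1, 19.8, 21.3 and 23.85 in males at 21 weeks, a difference of -0.35 ± 0.14. Row 3 differed by -0.19 ± 0.11 at that age, and without the 2 arrays that stood apart the rows differed by -0.23 and -0.13. At 8 weeks the differences were -0.08 ± 0.09 and -0.17 ± 0.13, and at 78 weeks 0.16 ± 0.14 and 0.12 ± 0.18, or 0.10 and 0.07 without the discordant arrays. Casq2 means were thus higher in males at the first 2 ages and in females at the third, with no row passing the test.

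Cacna1c encodes the pore of the L-type channel. Its row 1 was 1.97 to 2.19 in females and 1.74 to 2.25 in males at 8 weeks. At 21 weeks it was 1.35, 1.555, 1.98, 2.06 and 2.06 in females and 0.951, 0.960, 1.09, 1.26 and 1.52 in males. At that age 4 of 5 females lay above all males, by 0.64 ± 0.18, with an adjusted p of 0.268 by limma. Without the 2 arrays that stood apart the difference was 0.50. At 78 weeks it was 1.72, 2.01, 2.02, 2.10 and 2.52 in females and 1.49, 1.57, 1.59, 1.60 and 1.735 in males, with 4 of 5 females above all males, by 0.37 ± 0.11 and an adjusted p of 0.856. Without the 2 discordant arrays it was 0.43, with an adjusted p of 0.423. This was the largest difference relative to its error among the 14 rows at 21 and 78 weeks, and the 2 ages were different rats on different slides. Row 1 merged 2 probes, and 1 of them was at background on all arrays of both ages. On scanner values the measurable probe alone differed by 0.70 ± 0.19 at 21 weeks and 0.31 ± 0.13 at 78 weeks. The probe at background differed by 0.19 ± 0.48 and 0.91 ± 0.32. The row's value at 78 weeks thus includes a probe at background, and the ranking is of rows, not of single probes. Cacnb2, the beta subunit of that channel, differed by 0.01 ± 0.07, 0.18 ± 0.13 and 0.21 ± 0.14 at 8, 21 and 78 weeks. The last 2 values were 0.15 and 0.35 without the arrays named above.

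The exchanger Slc8a1 (row 2) differed by 0.15 ± 0.10 at 8 weeks, 0.17 ± 0.12 at 21 weeks and 0.02 ± 0.13 at 78 weeks. It differed by 0.08 at 21 weeks without the arrays that stood apart and by -0.05 at 78 weeks without the discordant arrays. Its signals ran from 0.171 to 0.243 over the 10 hearts of 8 weeks. The delta B probe of Camk2d differed by -0.10 ± 0.10, -0.19 ± 0.14 and 0.32 ± 0.19, and its signals at 78 weeks ran from 0.182 to 0.259 in females and from 0.117 to 0.224 in males. Without the same arrays its differences were -0.14 at 21 weeks and 0.42 at 78 weeks. Fkbp1b had a lower mean in females at 78 weeks by 1.12 ± 0.36 on the log2 scale, with an adjusted p of 0.856, but only 2 female and 4 male spots were above background there, so that most of the female values are bounds.

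**Figure D2:**
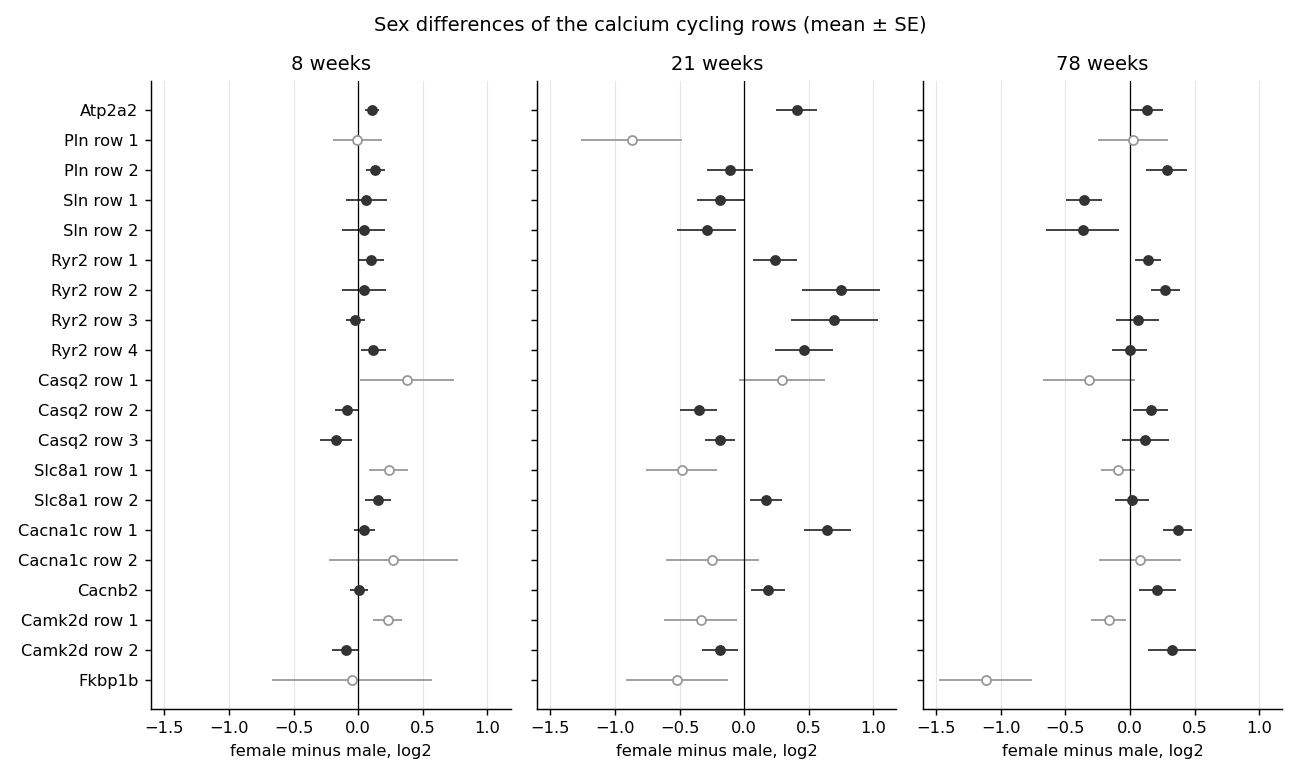
Female minus male difference on the log2 scale (horizontal axis) for the 20 member rows at 8, 21 and 78 weeks, as mean with SE, n = 5 per sex. Filled points are the 14 rows well above background on all arrays and open points the others; none of the differences passed an adjusted p of 0.05.

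The rule also asked for Atp2a2 relative to Pln, since the pump and its inhibitor bind each other. Because the 2 genes were read by different probes, this log2 difference has no meaning as a molar ratio, and only its change from array to array is described. At 8 weeks it was -2.46, -2.43, -2.41, -2.39 and -2.33 in females and -2.62, -2.43, -2.40, -2.26 and -2.20 in males. The means were -2.41 ± 0.05 and -2.38 ± 0.16 (SD, n = 5), a difference of -0.02 with p = 0.786 by a two-sided exact permutation test. The lowest male was replicate 5, the array with the outlier-marked Pln spot.

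At 21 weeks it was -2.86, -2.85, -2.83, -2.70 and -2.61 in females and -4.11, -3.90, -2.97, -2.78 and -2.65 in males. The 2 lowest males were the arrays that stood apart. The difference between the means of -2.77 ± 0.11 and -3.28 ± 0.67 was 0.51 (p = 0.167, exact permutation, n = 5 per sex), and without these arrays it was 0.03 (p = 0.821, exact permutation). At 78 weeks it was -2.13, -2.11, -2.02, -2.02 and -1.79 in females and -1.995, -1.91, -1.90, -1.74 and -1.74 in males. The means were -2.01 ± 0.14 and -1.86 ± 0.11, a difference of -0.15 (p = 0.0952, exact permutation, n = 5 per sex). The highest female was replicate 2 and the lowest male replicate 3, both discordant arrays. Without both arrays the difference was -0.25 and p = 0.0286, the smallest that an exact permutation of 4 against 4 allows, and without female replicate 2 alone it was -0.21 (p = 0.0159, exact permutation). The call at 78 weeks thus depended on these arrays. With labels as deposited, the female was the lower one in all 5 pairs of the same replicate number (p = 0.0625, exact permutation within pairs, the smallest that 5 pairs allow). In pair 2 both hearts had the male level of the Y-linked genes, and in pair 3 both had the female level. These pairs are therefore not comparisons of the sexes by those genes. On scanner values they stood at -1.78 and -1.73 in pair 2 and at -2.02 and -1.99 in pair 3, female label first.

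Across ages the comparison carries a limit of the design. The arrays of different ages were run in different batches, so age and batch cannot be told apart. For this reason the authors evaluated neither change with age nor a sex by age interaction, which they say might give false positives. Only 1 of 8 slides held arrays of 2 ages. These were 1 female and 1 male of 8 weeks and 1 female and 1 male of 78 weeks. A shared slide does not show that the other steps were shared. Values of this paragraph and the following ones come from the scanner files, scaled array by array. Atp2a2 minus Pln was -2.38 ± 0.09 at 8 weeks (SD, n = 9, from -2.46 to -2.20) and -1.93 ± 0.15 at 78 weeks (n = 10, from -2.14 to -1.73). All 10 old hearts lay above all 9 young hearts, by 0.44 on the log2 scale. The two-sided exact permutation test gave p = 2.17e-05, the smallest it can give. The difference was 0.40 in females alone (p = 0.00794, exact permutation) and 0.48 in males alone (p = 0.0159, exact permutation). On the shared slide the female pair differed by 0.32, and the male pair had no value because its young Pln spot was outlier-marked. At 21 weeks the mean was -3.03 ± 0.53 (n = 10, from -4.11 to -2.605), below all hearts of the other ages, so the 3 ages did not follow one direction.

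**Figure D3:**
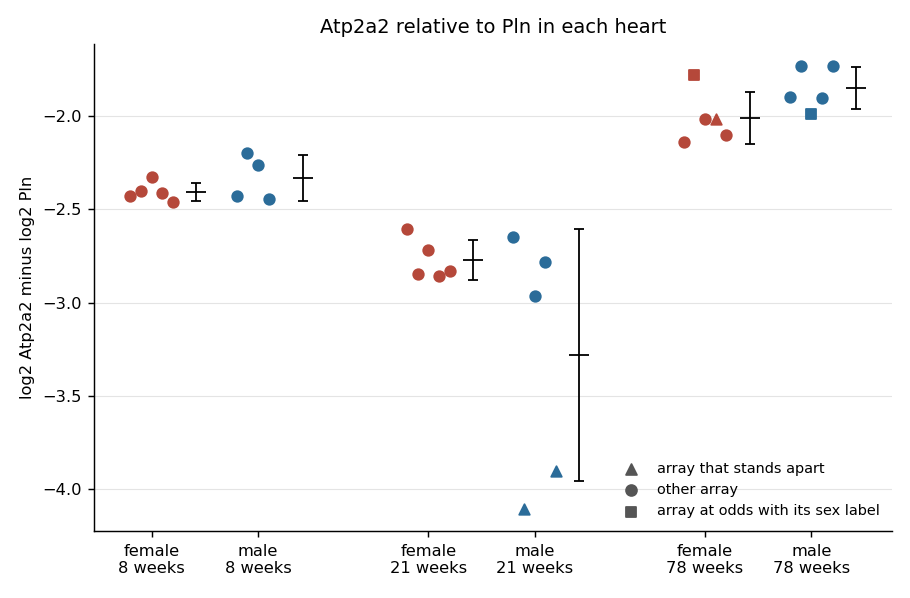
Log2 Atp2a2 minus log2 Pln (vertical axis, scanner values) in each heart by sex and age, with mean and SD beside each group. Triangles are arrays that stood apart from their age and squares are the discordant arrays; the old hearts lie from -2.14 to -1.73, above all young hearts, and both lowest values are 21-week males.

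Of the 2 genes, Pln passed the test between these ages. Its log2 level was 7.77 ± 0.12 at 8 weeks (SD, n = 9, from 7.59 to 7.95) and 7.35 ± 0.30 at 78 weeks (n = 10, from 7.03 to 7.98), and 9 of 10 old hearts lay below all young hearts. It fell by 0.41 ± 0.09 on the log2 scale, 0.755-fold, with an adjusted p of 0.00603 by limma with sex as a term, and on the shared slide the female pair differed by -0.39. With normexp, another background correction, Pln differed by -0.78 with an adjusted p of 0.0774 by limma. The 3 Atp2a2 probes differed by 0.02 ± 0.08, 0.14 ± 0.09 and 0.01 ± 0.07 between these ages and did not pass the test. With normexp their differences were -0.34, -0.20 and -0.36. At 21 weeks Pln stood at 8.22 ± 0.27, above the mean of either other age.

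Over the 27 member probes, 6 passed an adjusted p of 0.05 between 78 and 8 weeks, 4 higher and 2 lower in old hearts. These 22.2% lie near the 23.4% of all 41008 probes tested that passed, and by direction 14.8% and 7.41% of the member probes stand against 16.2% and 7.23%. At an unadjusted p under 0.05 there were 9 member probes, where 37.3% of all probes passed. None of the 27 passed the adjusted threshold with normexp background correction, where 970 of all 41008 probes did, or with slide as a fixed block, where 195 did. The median difference was 0.12 over the member probes and 0.12 over all probes. With quantile normalization these medians were 0.12 and 0.0045, and with normexp 0.0063 and 0.28, so that the members' place relative to all probes depended on the scaling. Over all probes 6647 were called higher and 2966 lower at 78 weeks, which became 2461 and 3083 with quantile normalization, and the member calls became 2 higher and 2 lower.

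The delta B probe of Camk2d, the cardiac form of the kinase, fell the most. It stood at -0.96 ± 0.15 at 8 weeks (SD, n = 10, from -1.205 to -0.68) and at -1.45 ± 0.35 at 78 weeks (from -2.21 to -1.01), with 8 of 10 old hearts below all young. It fell by 0.50 ± 0.12 with an adjusted p of 0.00755 by limma, and both pairs on the shared slide went the same way, by -0.39 in females and -0.82 in males. With normexp the difference was -0.06. The level at 21 weeks lay between, at -1.22 ± 0.19.

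All 6 Ryr2 probes had higher means at 78 than at 8 weeks, by 0.13 to 0.29, and 2 passed the test. The row 4 probe printed above rose by 0.29 ± 0.08 with an adjusted p of 0.0150 by limma, from -0.17 ± 0.14 to 0.12 ± 0.18 (SD, n = 10), and 8 of 10 old hearts exceeded all young. On the shared slide it was higher by 0.49 in the female pair and 0.60 in the male pair. The row 1 probe rose by 0.19 ± 0.07, with an adjusted p of 0.0486, but its pairs on the shared slide differed by 0.43 in females and -0.17 in males, and without the 2 discordant arrays its adjusted p was 0.0825. With normexp 3 of the 6 Ryr2 probes had a negative difference. At 21 weeks all 6 had a mean below both other ages.

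The 2 sarcolipin probes did not give the same call. The probe with the letters of the transcript differed by 0.12 ± 0.17 between 78 and 8 weeks, from 6.92 ± 0.26 to 7.04 ± 0.49 (SD, n = 10), and did not pass the test. The opposite-strand probe rose by 0.45 ± 0.11, from -0.65 ± 0.25 to -0.20 ± 0.27, with an adjusted p of 0.0104 by limma. On the shared slide both were higher in the old hearts, the first by 0.95 in females and 0.80 in males and the second by 0.80 and 1.19. The atrial list had 1 of its 4 measured markers higher at 78 weeks, Nppa, by 0.45 ± 0.13 with an adjusted p of 0.0239 by limma. The others did not pass the test, with Myl7 at 0.26 ± 0.09, Nr2f2 at 0.05 ± 0.09 and Myl4 at -0.02 ± 0.08. The summed scaled intensity of the list ran from 1111 to 1397 in young and from 1305 to 1784 in old hearts. The part of atrial tissue in the sarcolipin values was not tested.

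The remaining members showed no call between these ages on a measurable probe. Calsequestrin 2 differed by -0.03 ± 0.09 and 0.11 ± 0.12, Cacna1c by -0.04 ± 0.08, Cacnb2 by 0.02 ± 0.09 and 0.07 ± 0.09, and Slc8a1 by 0.05 ± 0.08 and 0.28 ± 0.13, the last with an adjusted p of 0.126 by limma. The sixth call, Camk2d row 1, was higher by 0.36 ± 0.10 but lay at background on every array, so it gives no level of the transcript.

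**Figure D4:**
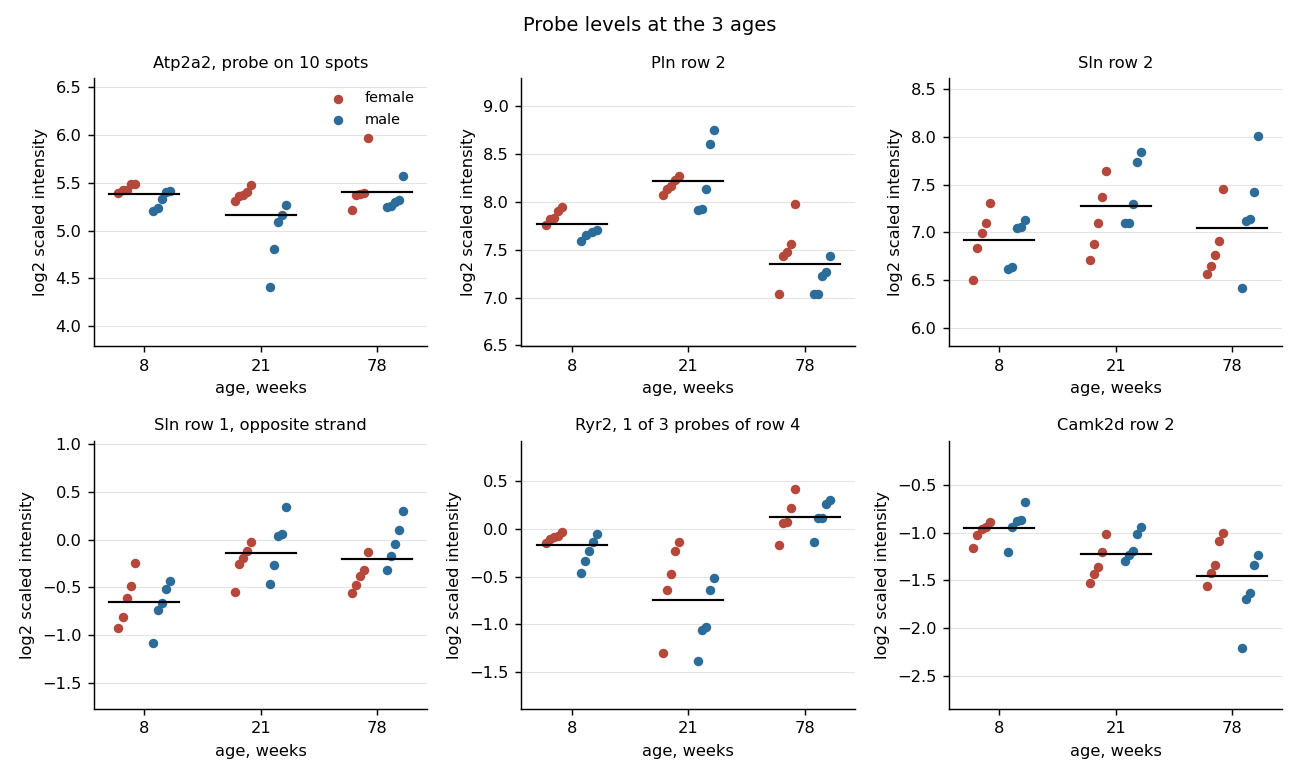
Log2 scaled intensity (vertical axis, each panel spanning the same number of log2 units) at 8, 21 and 78 weeks (horizontal axis) for 6 probes; points are hearts, females red and males blue, drawn in order of value, and bars are means over both sexes. Pln and Camk2d lie lower at 78 than at 8 weeks, the Ryr2 probe and the opposite-strand sarcolipin probe higher, and Atp2a2 and the transcript-strand sarcolipin probe did not pass the test.

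**Figure D5:**
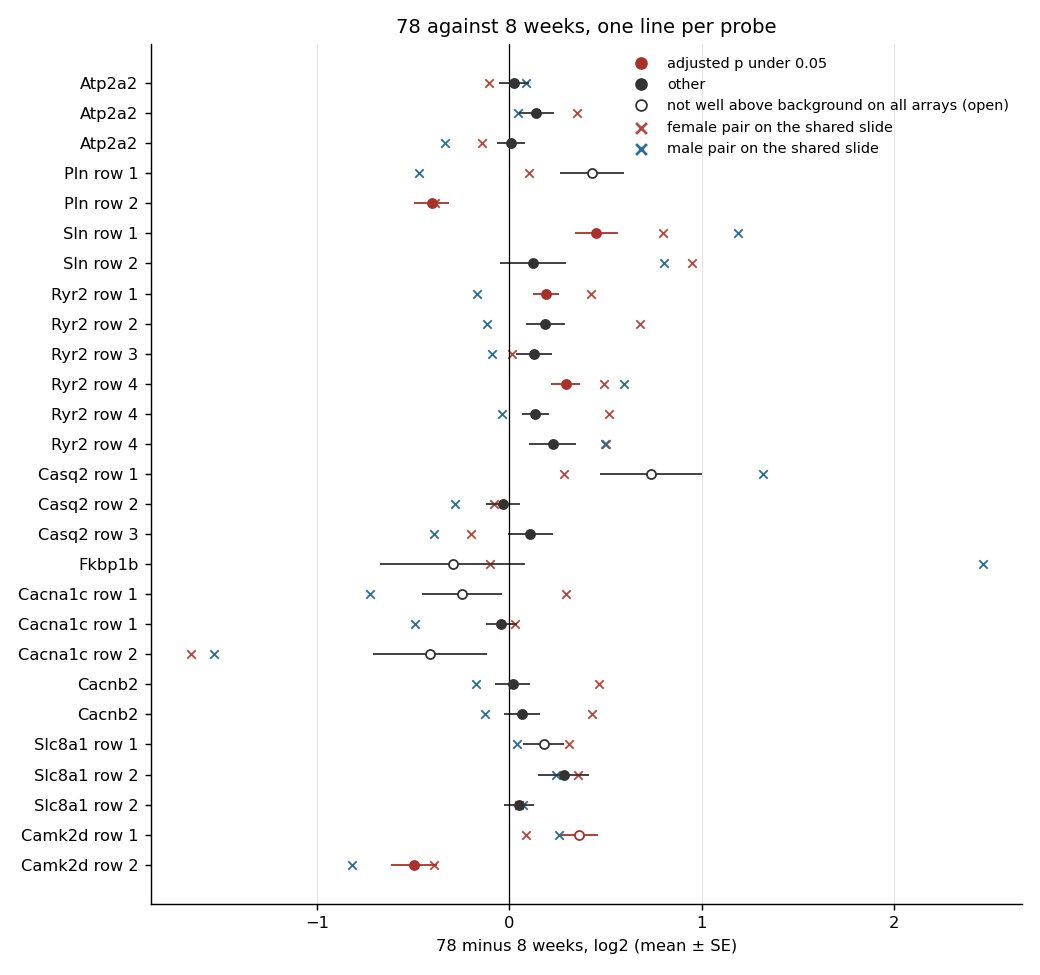
Difference between 78 and 8 weeks on the log2 scale (horizontal axis) for each of the 27 member probes, as mean with SE over 20 arrays (19 for Pln row 2). Red marks an adjusted p under 0.05, open circles are probes not well above background on all arrays, and crosses are the female and male pair on the slide that held both ages; all 6 Ryr2 means lie above 0 and Pln row 2 and Camk2d row 2 below.

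Cell type markers were read in the same fit. The general heart muscle list had 2 of 6 genes higher at 78 weeks, Myh6 (alpha myosin heavy chain) by 0.28 ± 0.10 and Tnnt2 (cardiac troponin T) by 0.24 ± 0.09. Without passing the test, Tnni3 and Myl3 had higher means, by 0.16 ± 0.08 and 0.17 ± 0.11. Actn2 and Myl2 had lower means, each by -0.18 ± 0.09, and did not pass either. The summed intensity of the list ran from 1957 to 2997 in young and from 2422 to 3422 in old hearts. Fibroblast markers had 2 of 4 lower, Col1a1 by -0.68 ± 0.11 and Col3a1 by -1.43 ± 0.10, with summed intensities of 385 to 479 and 123 to 298. Leukocyte markers had 2 of 4 higher, Cd68 and Cd163. Smooth muscle (Myh11), adipocyte (Cfd) and erythroid (Hba-a2) lists had 1 gene higher each, and endothelium had Vwf higher and Cdh5 lower. Of the 8 skeletal-type genes Myh2 was higher and Casq1 lower. The heart muscle markers Myh6, Tnnt2, Tnni3, Actn2, Myl2 and Myl3 were well above background on all 20 arrays. Of the skeletal-type list, Tnnt3, Tnni2, Mylpf and Casq1 were so on all 20 too. Myh2 was so on 3 young and 9 old arrays, Atp2a1 on 3 and 5, Myh1 on 0 and 1, and Myh4 on 2 and 0. The part of these shifts in the calcium cycling values was not tested. Between the sexes no marker passed the test at any age. Col3a1 at 8 weeks and Dcn at 21 weeks separated the sexes completely, both higher in males. In that direction 0.85% of all rows separated at 8 weeks and 2.12% at 21 weeks. Col1a1 of the same list had a mean log2 signal of 4.98 in females and 5.22 in males at 8 weeks. The order turned at 21 weeks, with 3.83 in females and 3.50 in males. The markers named for passing the test were chosen after their values were seen.

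Other genes of calcium handling were read as a list of 69 genes apart from the members. Between the sexes 0 of 88, 87 and 86 rows passed an adjusted p of 0.05 by limma at 8, 21 and 78 weeks, and 5, 14 and 4 had an unadjusted p under 0.05, where 5.74%, 15.9% and 5.65% of all rows did. The lowest p at 8 weeks belonged to Atp2b2, a plasma membrane calcium pump, lower in females by 0.58 ± 0.14 on the log2 scale with an adjusted p of 0.374, and to Trpc1, a cation channel, with 0.21 ± 0.07. At 21 weeks they were Pde4d, a cyclic AMP phosphodiesterase, with 0.64 ± 0.17, and Trpc1 with 0.45 ± 0.13, neither overlapping between the sexes, as 1.93% of all rows at that age in the same direction. At 78 weeks they were both rows of S100a1, a calcium-binding protein that modulates SERCA2 and the ryanodine receptor, with 0.39 ± 0.14 and 0.32 ± 0.12. The anchoring protein Akap6 separated the sexes at 78 weeks, higher in females by 0.32, as 0.41% of all rows did in that direction.

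Between 78 and 8 weeks 23 of 121 probes of that list passed, 11 higher and 12 lower, belonging to 20 of 65 measured genes, where 23.4% of all probes passed, 16.2% higher and 7.23% lower. By place, 7 of 38 probes of the sarcoplasmic reticulum passed (2 higher, 5 lower), 7 of 39 of the cell membrane (3 higher, 4 lower), 7 of 34 of kinases, phosphatases and binding proteins (4 higher, 3 lower) and 2 of 10 of the mitochondria (both higher). The median over the list was 0.04, against 0.12 over all probes. Camk2b, another isoform of the kinase, had the largest change, higher by 1.80 ± 0.12 with an adjusted p of 7.2e-09 by limma, from -3.28 ± 0.38 to -1.48 ± 0.19 (SD, n = 10), with 10 of 10 old hearts above all young and 2.18 on the shared slide. With normexp the difference was 0.67. It was well above background on 7 of 10 young and all 10 old arrays. Casq1, the skeletal calsequestrin, fell by 0.63 ± 0.11, and Cacnb3, a channel beta subunit, by 0.46 ± 0.10. A second Camk2b probe and the skeletal channel gene Cacna1s were also among the largest calls, both from probes at background.

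Whether the sex difference changed with age was tested over all 30 arrays (limma F-test of both sex by age terms). No member probe passed an adjusted p of 0.05, a threshold passed by 0.00244% of all probes. The lowest member value was an adjusted p of 0.383, for Cacna1c row 1, and 2 member probes had an unadjusted p under 0.05, where 11.3% of all probes did.

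The probes whose level moved most like that of a member from heart to heart were found by correlating deviations from the sex and age means over 30 arrays, among 14439 to 14470 probes well above background throughout. These correlations share the array, its depth and its RNA sample, and are given as a description. For Pln (29 arrays) the 5 highest were MGC125073 at 0.928, Fxyd1 (phospholemman, a regulator of the sodium pump) at 0.925, Ppm1j at 0.925, LOC685131 at 0.922 and LOC689755 at 0.914. Without the 3 arrays that stood apart these values were 0.862, 0.839, 0.885, 0.833 and 0.843. For Atp2a2 all 5 highest were sequences with no gene symbol or a predicted one, from 0.886 to 0.907, and from 0.787 to 0.828 without those 3 arrays. For the transcript-strand probe of sarcolipin the highest was the expressed sequence tag AW918768 at 0.958, followed by Mybphl at 0.846, Vsnl1 at 0.837, LOC290595 at 0.829 and the opposite-strand sarcolipin probe at 0.819. Leaving out the 3 arrays left these between 0.825 and 0.960. The 3 Atp2a2 probes correlated with Pln at -0.33, -0.01 and 0.34, so the 3 pump probes did not relate to Pln alike.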

How the data were processed

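Gene expression was measured in whole hearts of 30 F344 rats, 5 per sex at 8, 21 and 78 weeks, and rats were grouped by the sex and age of their labels. Per the file headers, spot intensities had been quantified from Cy3 scans with Agilent Feature Extraction, which subtracted background and corrected trends across the array. The deposited table of each age holds signal relative to the 75th percentile of its array, with 1 value for all probes that the authors took as one gene and without genes they took as unexpressed. The deposited signal in 99.68%, 99.69% and 99.67% of rows equalled, within 0.002 on the log2 scale, the geometric mean of the processed intensity over spots of one name, divided by that percentile. The authors tested sex by analysis of variance within each age.

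Sexes were compared on log2 of the deposited signal with limma 3.58.1 (R 4.3.3) and Benjamini-Hochberg adjustment over all rows. The tables of the ages were scaled separately, so 78 and 8 weeks (sex as a term) and sex by age were fitted on scanner intensities over each array's 75th percentile, without control spots and outlier-flagged spots. Atp2a2 minus Pln was compared by exact permutation (scipy 1.17.1); across ages the exact test replaced a planned resampling because 1 flagged Pln spot left 9 young values. Scripts were tested on simulated data. The number of arrays limits the precision, and nothing in the sources describes replicates beyond separate rats.

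Same-numbered females and males deviated together at 78 weeks only (lowest correlation of pairs 0.2026, 5 of 5 pairs over 0.1), so replicate numbers pair the samples there, as a property of the data with no stated source. All member rows were named; of the wider list, the called rows (the 6 largest, 1 of which is not reported here) or else the 2 of lowest p; of markers, the first of each list and those without overlap; and the 5 probes most like Atp2a2, Pln and Sln. Members and lists were chosen with earlier results of these data known. Alternatives changed the source of values, background correction, normalization, dim-probe filter, slide or replicate block, rows of a name, and left out arrays.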

Additional observations from a re-analysis of the deposited data

Results flagged for a closer look

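In 7 of 90 groups of 5 hearts, 1 array lay far from the other 4, its gap to the nearest taking more than 0.71 of the range on the log2 scale. Chance alone gives about 1 in 20 such groups if they are independent. These are not, because the rows of a sex and age share the same 5 hearts. The highest of the 8-week females for Ryr2 row 3 had a signal of 1.596 against 1.519 for the nearest (0.741 of the range). Among 21-week males, Ryr2 row 1 had 0.7091 against 0.4927 (0.751). At 78 weeks Atp2a2 had 32.45 against 22.9 in females (0.761) and 24.21 against 21.62 in males (0.748). That female was replicate 4, whose array stood apart. In females of that age Ryr2 row 1 had 1.131 against 0.9146 (0.801), Ryr2 row 2 had 68.98 against 55.93 (0.78) and Casq2 row 3 had 17.93 against 11.89 (0.779).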

How the results depend on the processing

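No member row passed the test between the sexes at any age, nor any member probe for sex by age, under any alternative run. For the wider list this held except at 21 weeks with quantile normalization, with 1 call (Cacna2d2, 1.48, adjusted p 0.0436 by limma; 0.92 otherwise). Over single member rows, 52 of 784 alternative values between the sexes and 39 of 600 between ages changed sign, none of them a called value.

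Atp2a2 minus Pln between the sexes at 8 weeks turned to 0.1153 with the background Pln row and to 0.004387 with 1 Atp2a2 probe, and ran from -0.08355 to 0.02158 with 1 heart left out. At 21 weeks it passed the test with normexp (0.5683), median signal (0.6114) and the background Pln row (1.278), and ran from 0.3037 to 0.6677 with 1 heart left out. At 78 weeks it was -0.2458 without the 2 discordant arrays, 0.1056 with the background Pln row, and -0.2113 to -0.1257 with 1 heart left out. From -0.1549 it shrank to -0.07093 with normexp (p = 0.571, exact permutation) and to -0.0562 with median signal (p = 0.635, exact permutation). With 1 Atp2a2 probe in place of the row it was -0.04214 (p = 0.833, exact permutation). With the replicate number as a block (pairing) it was -0.05922, 0.5101 and -0.1602 at the 3 ages (exact permutation p = 0.375, 0.188 and 0.0625, the last being the smallest that 5 pairs allow). Pairs 2 and 3 of 78 weeks each held a discordant array. At 8 and 21 weeks the numbers did not pair the samples (2 and 3 of 5 pairs over 0.1, with 1 and 3 best with their own number), and the block moved calls over all rows of scanner values from 29 to 5 and from 16 to 5. It changed no call of a member.

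Between 78 and 8 weeks Atp2a2 minus Pln was -0.3919 with the background Pln row and 0.3214 on the shared slide. Member calls went from 6 to 0 with normexp, 0 with slide as a fixed block, 0 in females alone and 1 in males alone. They ran from 5 to 10 with 1 heart left out (10 without 78-week female replicate 4). Over all probes the calls went from 9613 to 970, 195, 839 and 1608 in the same settings. They ran from 5363 to 12028 with 1 heart left out (12028 without 78-week female replicate 4). Calls of the wider list went from 23 to 4 with normexp, 1 with slide as a fixed block, 2 in females alone and 4 in males alone. Without the 2 discordant arrays there were 12, where 4602 of all probes were called. With 1 heart left out they ran from 14 to 31 (15 without 8-week female replicate 1, 14 without male replicate 2 or 4). The single-sex fits had fewer samples. With slide as a fixed block the age difference rested on the 4 arrays of the slide that held both ages. The cause of the other changes was not tested.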
